A study of Homo sapiens with 6 samples.

Results

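The epidermal differentiation complex is a stretch of chromosome 1 in which genes of the outermost skin layers lie side by side with most members of the S100A family. Its genes were examined here in MDA-MB-453, an established line of human breast carcinoma, after knockdown of tRF-1-Ser, a short fragment derived from a precursor of the transfer RNA for serine. Members were defined by name and place, and this rule was set with earlier results of these data known. Their symbols begin with S100A, SPRR, LCE, FLG, IVL, LOR, RPTN, TCHH, CRNN, HRNR or PGLYRP. They lie on chromosome 1, in the window that runs from S100A10 (start 151982915, GRCh38) to S100A1 (end 153632039) and takes in their flanks. The count table held 39 such genes among 36517, namely 17 of the S100A family and 22 others. A further 25 genes of GENCODE release 29 that match the same rule were not analysed here. Every gene of the count table had counts in some library, so the 39 include no gene without counts.

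The control group was MDA-MB-453 carrying a lentivirus with the negative-control hairpin shNC, and the shtRF group was the same line carrying a lentivirus with the hairpin shtRF-1-Ser. Both were sampled at day 3, with 3 mRNA libraries each. A single hairpin was used, so effects of its sequence and of losing tRF-1-Ser cannot be told apart. The libraries do not measure the small RNA itself, so the groups rest on the labels. Whether the replicates came from separate transductions is not stated, and p-values measure the spread between these libraries, which may be technical. The libraries held 63541413 to 78917459 counts. All 10 luminal breast epithelial markers fixed for this check lay above 1 RPKM (reads scaled to exon length and library total), among them EPCAM and KRT8. Of 6 keratinocyte or basal markers, only KRT10 did, with KRT5, KRT14, KRT1 and DSG3 close to 0. The summed level of the luminal markers was 3256 to 3591 RPKM in control and 3944 to 4213 RPKM in shtRF, and that of the keratinocyte or basal markers was 3.31 to 4.29 and 2.49 to 2.86 RPKM. Their part in the results was not tested.

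As background, cornification is the process by which keratinocytes of the skin build a tough protein shell beneath their membrane and die. Involucrin (IVL) and loricrin (LOR) are scaffolds of that shell, small proline-rich (SPRR) and late cornified envelope (LCE) proteins reinforce it, and filaggrin, hornerin, repetin, trichohyalin and cornulin are long repeat proteins that carry an S100 domain at their start. S100A proteins are small, and most of them are calcium sensors that bind other proteins as dimers. They are found well beyond skin: S100A8 and S100A9 form calprotectin, a secreted antimicrobial dimer of neutrophils and inflamed epithelium, and S100A10 binds annexin A2.

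The sequences before the start sites differ widely within this cluster. The 250 bases upstream of the RefSeq start (GRCh38.p14) (which for S100A14 lies inside the gene as the count table bounds it) are printed for S100A9 and IVL, which fell and rose most among the 13 members with enough counts to be tested, and for S100A14, the member with the highest level. Capitals mark the motifs that were searched on both strands. These were the TATA box, as TATAAA, and the AP-1 motif, as TGANTCA. The E-box was searched as CACGTG. For the receptor AHR, the core letters GCGTG were used. For factors of the KLF type the core was CCACCC, which reads GGGTGG on the other strand. The C/EBP type was searched as TTNNGCAA. For the Grainyhead type the letters were AACCNGTT. No motif is contained in another.

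S100A9 (chr1:153357604-153357853, plus strand): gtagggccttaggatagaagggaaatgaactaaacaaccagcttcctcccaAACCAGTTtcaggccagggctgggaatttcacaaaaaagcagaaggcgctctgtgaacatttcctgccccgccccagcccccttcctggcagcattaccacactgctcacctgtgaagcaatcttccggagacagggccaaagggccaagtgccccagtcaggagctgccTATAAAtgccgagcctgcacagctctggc
IVL (chr1:152908296-152908545, plus strand): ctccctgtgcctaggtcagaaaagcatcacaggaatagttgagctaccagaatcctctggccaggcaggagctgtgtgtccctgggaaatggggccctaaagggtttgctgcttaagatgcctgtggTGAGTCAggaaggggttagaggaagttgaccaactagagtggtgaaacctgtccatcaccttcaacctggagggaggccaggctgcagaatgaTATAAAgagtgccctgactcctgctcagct
S100A14 (chr1:153616326-153616575, minus strand): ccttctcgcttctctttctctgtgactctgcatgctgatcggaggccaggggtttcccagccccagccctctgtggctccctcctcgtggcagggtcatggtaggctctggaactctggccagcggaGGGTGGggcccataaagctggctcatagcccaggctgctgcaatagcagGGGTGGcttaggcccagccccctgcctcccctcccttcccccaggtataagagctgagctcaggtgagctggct

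The S100A9 promoter held a TATA box 29 bases before the start and 1 Grainyhead-type match, AACCAGTT, 199 bases before it. The latter motif is present in 1.49% of 35116 promoters of the same length. RPTN, with at most 10 counts in any library, also had such a match, AACAGGTT, 186 bases before its start. The IVL promoter held a TATA box 30 bases before the start and an AP-1 match, TGAGTCA, 123 bases before it. The S100A14 promoter held neither, and had KLF cores 123 and 74 bases before its start. Promoters were found for 35 of the 39 members. A TATA box beginning 25 to 35 bases before the start was present in 16 of these 35 genes (45.7%), against 914 of 27305 genes (3.35%) in all. AP-1 matches were present in 14 of the 35 members (40%) and in 8.06% of all genes. Many of these genes arose by duplication, so these counts are descriptions of related sequences. None of the 8 members that were expressed here, by the limit given next, had an AP-1 match, whereas 14 of the 27 others with a promoter did. A TATA box at that place was found in 2 of the 8 expressed members, S100A9 and S100A13, and in 14 of the 27 others. The KLF core was found in 7 of the 8 expressed members, in 13 of the 27 others and in 35% of all genes. This core is rich in G and C, and the promoters differed in that too. The median share of G and C was 63.2% for expressed members, 53.2% for the others and 58% for all promoters. Whether this bears on the matches was not tested. Among the 16 S100A members with a promoter, expressed or not, 14 had a KLF core, 6 a TATA box at that place and 4 an AP-1 match. Among the 13 members tested later, the AHR core was found in 6 (32.2% of all promoters), the C/EBP-type letters in 2 (9.05%) and the E-box in 0 (6.34%). A member with several promoters was counted if any of them matched, whereas these shares are per single promoter.

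Which members were expressed was asked first. A gene was called expressed if its mean over the 3 libraries of either group reached 1 RPKM. This was the case for 8 of the 39 members, and all 8 belonged to the S100A family: S100A14, S100A16, S100A11, S100A13, S100A10, S100A6, S100A9 and S100A1. Another 5 members, IVL, TCHH, S100A2, S100A4 and FLG, had enough counts to be tested but stayed below 1 RPKM. Another 11 had too few counts to be tested, with at most 20 in any library, and 15 had at most 3 counts in every library. S100A14 and S100A16 alone took 79.3% to 80.9% of all member counts in control and 77.5% to 78% in shtRF.

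**Figure D1:**
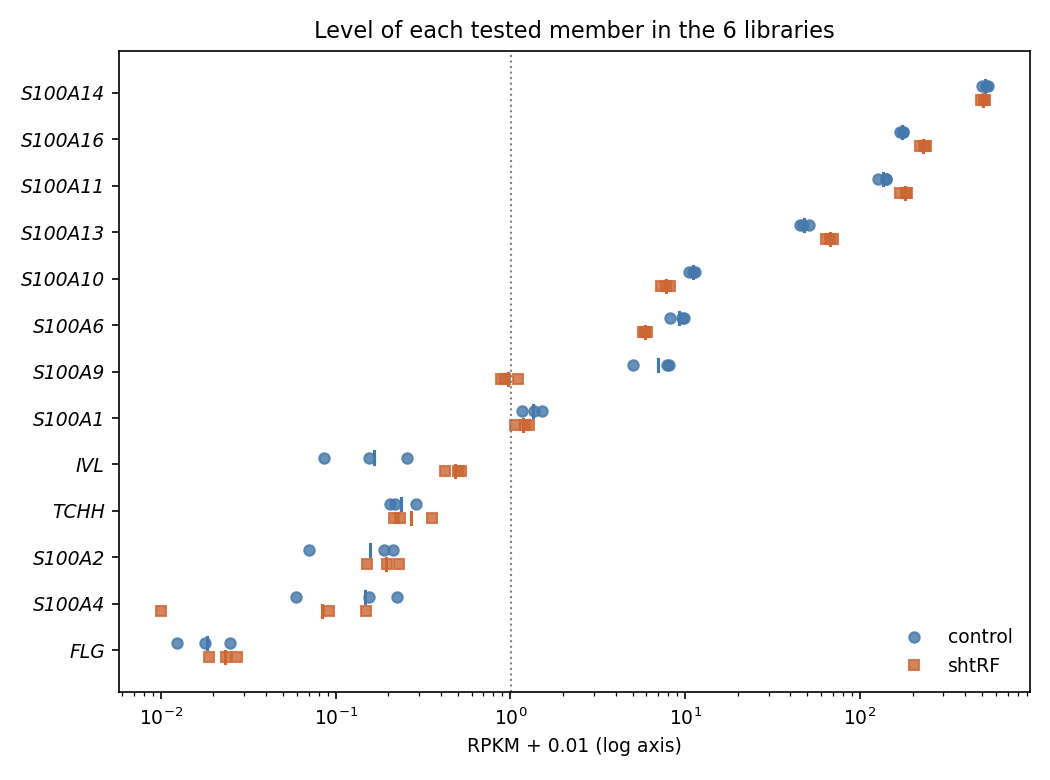
RPKM of the 13 tested members in each library, plotted as RPKM + 0.01 on a log axis, with circles for control, squares for shtRF and a short bar for the mean of 3 libraries; the dotted line is the limit of 1 RPKM. The mean levels in control run from 522 RPKM for S100A14 to 0.00844 RPKM for FLG, and S100A9 moves from well above the line in control to the line in shtRF.

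S100A14, an S100 protein of epithelia, had the highest level of the cluster. Its RPKM values were 523, 542 and 499 in control and 489, 512 and 520 in shtRF. The groups overlapped. The order of mean RPKM in control was S100A14, S100A16 (173), S100A11 (136), S100A13 (47.9), S100A10 (11), S100A6 (9.19), S100A9 (6.99) and S100A1 (1.34). No neighbours in this order overlapped between libraries, but the highest S100A9 library (8.11 RPKM) came close to the lowest S100A6 library (8.17 RPKM). In shtRF the first 6 genes kept this order, while S100A9 (0.965 RPKM) and S100A1 (1.17 RPKM) could not be separated, since their libraries ranged from 0.873 to 1.09 RPKM and from 1.05 to 1.27 RPKM.

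The genes of cornification proper were nearly silent. The 6 LCE members had 12 counts in total over all libraries and at most 2 in any of them, and the 4 SPRR members had 20 in total. LOR, PGLYRP3, PGLYRP4 and the antisense gene FLG-AS1 had at most 2 counts in any library. Of the 7 genes for S100-fused repeat proteins, TCHH had 92 to 168 counts per library and FLG 2 to 14, and TCHHL1, RPTN, HRNR, FLG2 and CRNN had 0 to 12. In the S100A family itself, S100A7, S100A7A, S100A7L2, S100A12, S100A3 and S100A5 had at most 6 counts in any library. Low counts were mostly even numbers. Depending on the library, 74.2% to 77.1% of counts from 1 to 4 were even, whereas for counts of 1000 or more the share was 49.7% to 50.7%. The number of independent fragments behind a low count may therefore be smaller than the count.

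To learn which members responded to the hairpin, shtRF was compared with control by edgeR's quasi-likelihood test, with p-values adjusted over all 19628 genes tested. CPM values are counts scaled to the library total after TMM, given with the SD over 3 libraries. Of 13 members tested, 4 were higher (IVL, S100A13, S100A11 and S100A16) and 3 were lower (S100A9, S100A6 and S100A10) in shtRF at an adjusted p under 0.05. Over all genes 20.6% were higher and 18.9% lower, 39.5% together. Among the 13 tested, the 7 called members were also those whose libraries did not overlap between groups in CPM, as was the case for 48.7% of all tested genes. The median log2 fold change was 0.23 over the 13 members and 0.00 over all genes. In these bulk libraries, fewer cells with a transcript and less of it per cell cannot be told apart.

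S100A9 (chromosome 1, 153357854 to 153361027, plus strand) showed the largest difference among the 13 tested members. In control its counts were 290, 345 and 228, and in shtRF they were 44, 36 and 34. Every control library lay above every shtRF library, and control replicate 3 was the lowest of its group. The level dropped from 3.96 ± 0.958 to 0.566 ± 0.0534 CPM (SD, n = 3), or 6.95-fold, and the log2 fold change was -2.80 ± 0.21 (SE; edgeR adjusted p = 7.2e-10). No other tested member fell by more than 2-fold with an adjusted p under 0.05, as 3.11% of all tested genes did.

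S100A8, which encodes the other chain of calprotectin and lies beside S100A12 in the same block, was barely detectable. It had 4, 20 and 10 counts in control and 0, 2 and 0 in shtRF. The sums were 34 and 2 counts, and their ratio, scaled to library totals, was 16.1 (95% exact binomial interval 4.12 to 138, which covers counting error only). The interval takes every count as an independent fragment. All counts of S100A8 were even, so the interval may be too narrow. The filter on low counts kept S100A8 out of the test. Without that filter, its log2 fold change was -3.72 (edgeR adjusted p = 0.0111), and this test takes the counts in the same way. The unfiltered fit also gave far smaller p-values for called members. The edgeR adjusted p of S100A9 was 3.22e-43 there and 7.2e-10 in the main fit, and that of IVL was 3.36e-06 and 0.000917. The value for S100A8 is therefore not comparable with the adjusted p-values of the main fit. Since S100A8 and S100A9 are abundant in myeloid cells, markers of those cells were examined in the same libraries. All 6 (PTPRC, LYZ, ITGAM, CSF1R, CD14 and MPO) were below 1 RPKM, and none was at 0 in every library. Their summed level was 0.0933 to 0.15 RPKM in control and 0.089 to 0.091 RPKM in shtRF. The means of S100A9 alone were 6.99 and 0.965 RPKM. Whether myeloid cells contributed to the counts of S100A8 or S100A9 was not tested.

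**Figure D2:**
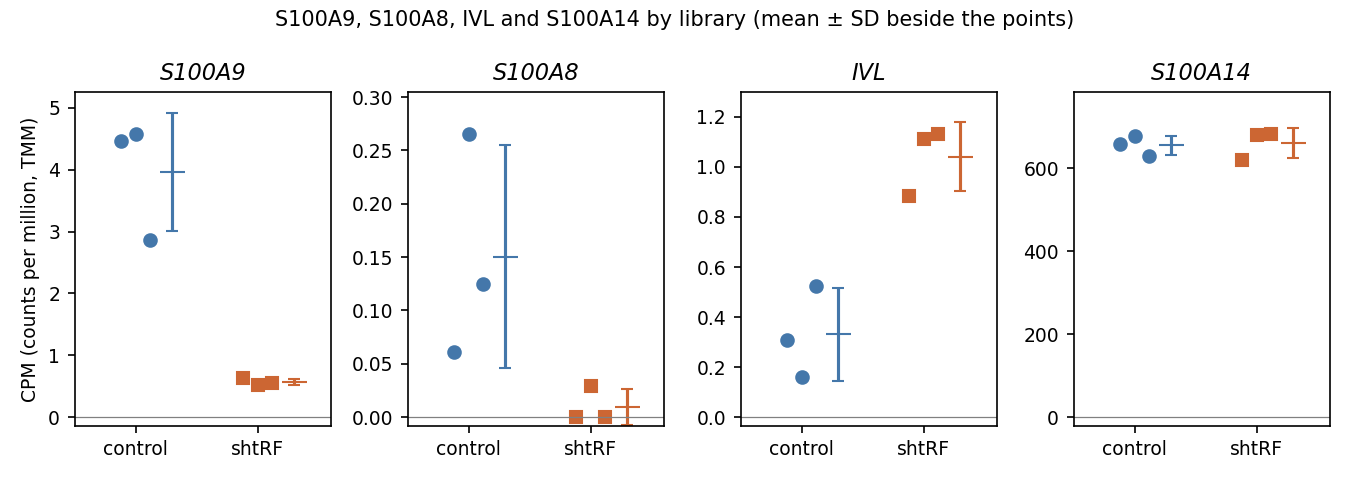
CPM of S100A9, S100A8, IVL and S100A14 in each library (circles, control; squares, shtRF), with the mean and SD of 3 libraries beside the points and an axis of its own for each gene. S100A9 and IVL separate the groups in opposite directions, S100A8 is near 0 throughout shtRF, and S100A14 overlaps between the groups.

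IVL (chromosome 1, 152908545 to 152911886, plus strand), the involucrin gene, was the 1 of 3 tested members outside the S100A family that passed the threshold. The other 19 had too few counts to be tested. It had 20, 12 and 42 counts in control and 62, 76 and 70 in shtRF. All of these counts were even, so fewer independent fragments may lie behind them. The highest control library remained below the lowest shtRF library. The mean CPM of IVL rose from 0.331 ± 0.185 to 1.04 ± 0.136 (SD, n = 3), and its log2 fold change was 1.64 ± 0.36 (SE; edgeR adjusted p = 0.000917). The log2 fold change of IVL was 1.29 to 2.17 when single libraries were left out, and 1.61 with all counts halved (edgeR adjusted p = 0.000589). Even in shtRF its level of 0.473 RPKM was below the limit set for expression. Among all tested genes, 2.66% rose by more than 2-fold with an adjusted p under 0.05.

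S100A10 and S100A6 both fell by less than 2-fold. S100A10, which lies at the proximal end of the cluster and encodes the annexin A2 partner, had 1092, 1199 and 1384 counts in control and 829, 800 and 803 in shtRF. Its log2 fold change was -0.46 ± 0.08 (SE; edgeR adjusted p = 7.69e-05), from 16.7 ± 0.739 to 12.1 ± 0.71 CPM. S100A6, which encodes calcyclin, had 607, 689 and 626 counts in control and 387, 421 and 362 in shtRF. It dropped from 8.76 ± 0.806 to 5.83 ± 0.311 CPM (log2 fold change -0.59 ± 0.10, SE; edgeR adjusted p = 9.43e-05). For both genes all control libraries were above all shtRF libraries.

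S100A11, S100A16 and S100A13 rose by similar amounts. S100A11, or calgizzarin, had 5494, 7085 and 7558 counts in control and 8071, 8962 and 8041 in shtRF, which corresponds to 91.0 ± 5.66 and 125 ± 8.77 CPM. Its log2 fold change was 0.46 ± 0.06 (SE; edgeR adjusted p = 2.69e-06). S100A16, a widely expressed S100 protein, had 19000, 21162 and 23641 counts in control and 28252, 26745 and 25083 in shtRF. It rose from 289 ± 8.3 to 399 ± 8.1 CPM, and here too the log2 fold change was 0.46 ± 0.05 (SE; edgeR adjusted p = 2.61e-07).

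S100A13, which takes part in the release of growth factors that lack a signal peptide, had 6676, 7448 and 8936 counts in control and 10335, 10097 and 9836 in shtRF. The increase was from 104 ± 6.84 to 151 ± 6.66 CPM (log2 fold change 0.53 ± 0.06, SE; edgeR adjusted p = 1.57e-07). For S100A13, other annotated genes cover 33.5% of the exonic sequence. Its main partner, the noncoding gene RP1-178F15.5 on the same strand, was credited with 96% to 98.2% as many counts as S100A13 in each library and rose by the same 0.53. Reads of these genes cannot be told apart in the counts. For none of the other called members was more than 2.37% of the exonic sequence shared, and none of their transcripts had a 100-base stretch in common with a transcript of another gene in GENCODE release 29.

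The other 6 tested members did not pass the threshold. For S100A14 the mean CPM was 654 ± 23.1 in control against 660 ± 35.4 for shtRF (log2 fold change 0.01 ± 0.06, SE; edgeR adjusted p = 0.887), with replicates close enough that the error of the estimate was as small as for its neighbours. The sign of this value turned with upper quartile scaling (-0.023), so it has no direction. S100A1, a calcium sensor best known from heart muscle, had 223, 338 and 324 counts in control and 268, 227 and 231 in shtRF (log2 fold change -0.14 ± 0.14, SE). Other genes, mainly RP1-178F15.4 on the opposite strand, cover 18.3% of its exonic sequence. TCHH, the trichohyalin gene of hair follicles, had a log2 fold change of 0.23 ± 0.21. For FLG (0.66 ± 0.62), S100A2 (0.36 ± 0.49) and S100A4 (-0.76 ± 0.76), at most 25 counts per library left errors about as large as the estimates themselves. Adjusted p-values of these 6 genes ran from 0.422 to 0.887.

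Position in the cluster was described next. S100A16, S100A14 and S100A13 follow each other on the minus strand in direct succession, and the middle gene alone had a log2 fold change near 0. The ratio of S100A14 to S100A16 in RPKM was 2.99, 3.21 and 2.83 in control and 2.05, 2.33 and 2.24 in shtRF. The groups did not overlap (3.01 ± 0.191 and 2.21 ± 0.141, SD, n = 3). This pair was chosen after its values were seen, so the ratio is given as a description. At the other end of the cluster S100A10 fell and S100A11, the next gene on the same strand, rose.

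**Figure D3:**
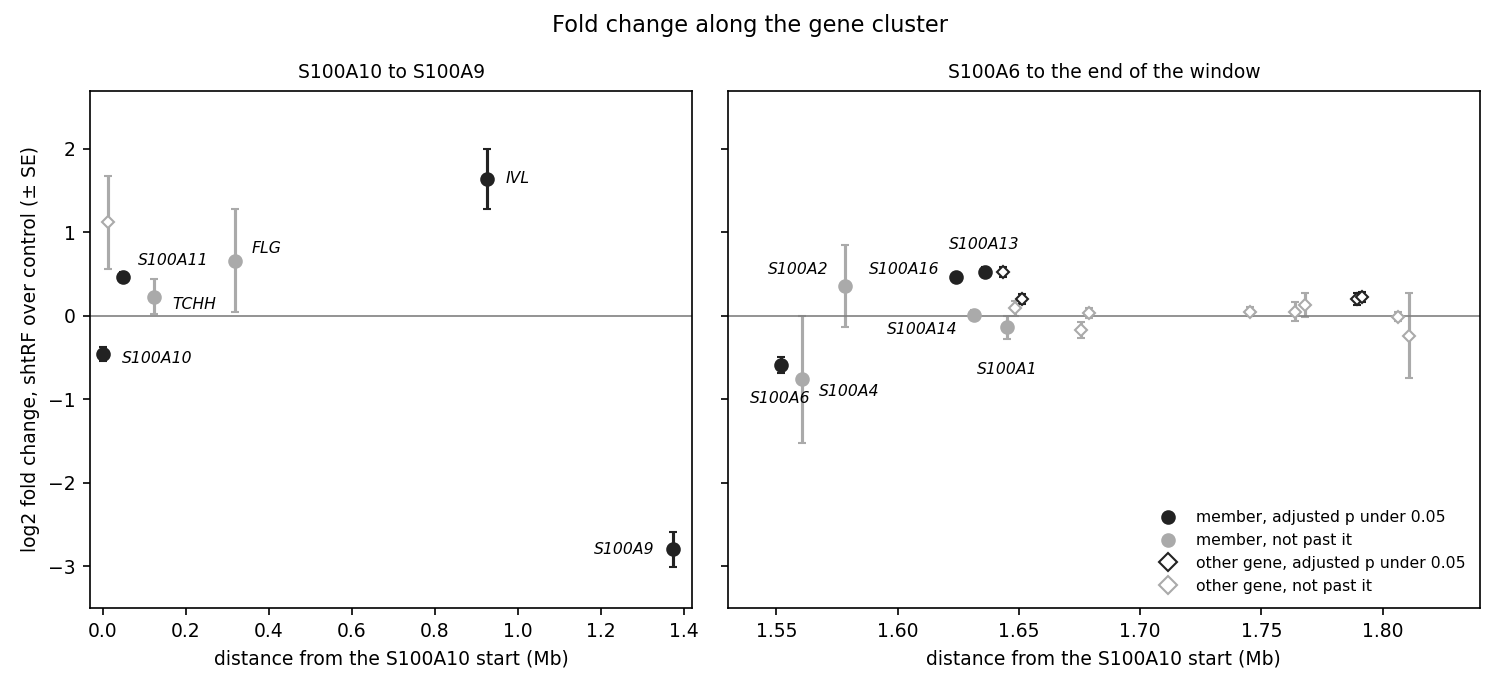
Log2 fold change of shtRF over control (± SE) for the 13 tested members (circles) and the 13 tested other genes of the window (diamonds) against their distance from the S100A10 start in Mb; black marks an adjusted p under 0.05. S100A9 at -2.80 and IVL at 1.64 stand far from 0, whereas the black diamonds lie at 0.53 or below.

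The remaining genes of the same window were compared with the members. Of 21 such genes 13 were tested, 4 were higher and 0 were lower at an adjusted p under 0.05 by edgeR, against 20.6% and 18.9% of all tested genes. The numbers were the same at an unadjusted p under 0.05 and by DESeq2, while limma-trend called 1 higher and 0 lower. The median log2 fold change was 0.09. The 4 genes, named after their values were seen, were RP1-178F15.5 (0.53), SLC27A3 (0.22), CHTOP (0.20) and AL513523.2 (0.20). All exonic bases of RP1-178F15.5 are shared with other genes, mainly S100A13 on the same strand, so its call is not separate from that of S100A13. AL513523.2 lies wholly within exons of INTS3 on the opposite strand. Without control replicate 2, shtRF replicate 1 or shtRF replicate 3, 2 of the 13 were higher. None of these 4 changed by more than 2-fold.

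S100 genes outside the window gave little signal. Of S100B, S100P, S100Z and S100G, together with the S100P binding protein gene S100PBP, only S100P and S100PBP could be tested. S100P was 0.174 ± 0.0813 and 0.229 ± 0.221 CPM, with a log2 fold change of 0.38 ± 0.65 (SE). For S100PBP it was 0.09 ± 0.06. Neither passed the threshold by edgeR, DESeq2 or limma-trend, nor at an unadjusted p under 0.05 by edgeR.

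Proteins that bind S100A proteins or serve as their receptors were examined as a list of 19 genes. Of 14 tested, 3 were higher and 6 lower (20.6% and 18.9% of all tested genes were), and the median log2 fold change was -0.11. Leaving out control replicate 1 or shtRF replicate 1 reduced the number lower to 2, and leaving out control replicate 3, shtRF replicate 2 or shtRF replicate 3 reduced it to 3. ANXA2, which encodes the partner of S100A10, had mean CPM values of 381 ± 31 and 363 ± 22.2 (SD, n = 3 for each group) and did not pass (log2 fold change -0.07 ± 0.06, SE; edgeR adjusted p = 0.408). AHNAK, a giant scaffold protein held at the membrane by S100A10 and annexin A2, rose from 802 ± 20.3 to 938 ± 22.1 CPM (log2 fold change 0.23, edgeR adjusted p = 0.00152). ANXA1, the annexin A1 gene, was low at 2.22 and 2.40 CPM (log2 fold change 0.12 ± 0.17, SE). TRPV6, an epithelial calcium channel that S100A10 helps to reach the membrane, dropped from 67.6 ± 7.2 to 33.7 ± 2.09 CPM (edgeR adjusted p = 1.95e-10).

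Cornification genes outside the window included enzymes, proteases and lipid-handling genes. Of 51 listed genes 46 were found and 21 tested, with 5 higher, 5 lower and a median log2 fold change of 0.06. Both counts lie near the shares over all tested genes, 20.6% higher and 18.9% lower. Without control replicate 2, 3 were lower. The 2 that fell by more than 2-fold were CASP14, a caspase of the granular layer (-6.27, edgeR adjusted p = 4.84e-17), and CDSN, which encodes corneodesmosin (-1.09 ± 0.10, SE). CDSN shares 93.8% of its exonic bases with overlapping genes. None rose by more than 2-fold. The plakins EVPL and PPL, on which the shell is first laid down, were at 77.3 and 20.9 RPKM in control, and TGM1, the transglutaminase that cross-links involucrin, was at 0.135 RPKM. These levels were singled out after their values were seen. TGM1 had a log2 fold change of -0.10 ± 0.38 (SE).

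Transcription regulators of epidermal differentiation formed the last list. Of 48 genes 45 were tested, and 10 were higher and 18 lower, with a median log2 fold change of -0.08. Among all tested genes 20.6% were higher and 18.9% lower. Fits without 1 library gave 9 to 11 higher and 13 to 17 lower genes of this list, and limma-trend gave 7 and 15. KLF4, a zinc finger factor of barrier formation, rose from 4.24 ± 0.618 to 11.1 ± 1.02 CPM (log2 fold change 1.38 ± 0.11, SE; edgeR adjusted p = 2.38e-09). AHR, the receptor for dioxin and related ligands, rose by 1.71 on the log2 scale, with 39.2% of its exonic sequence shared with overlapping genes. PPARA, a lipid-sensing nuclear receptor, fell from 9.34 ± 0.343 to 4.48 ± 0.353 CPM (-1.06 ± 0.10, SE; edgeR adjusted p = 3.38e-08). GRHL2, the Grainyhead-like factor with the highest level of its family here, had 126 ± 3.64 and 113 ± 0.854 CPM (log2 fold change -0.16, edgeR adjusted p = 0.0171). TP63, the master regulator of squamous epithelium, was low at 2.88 ± 0.409 and 1.98 ± 0.437 CPM (-0.54, edgeR adjusted p = 0.0201). ZNF750, its target in keratinocytes, was 3.21 and 2.96 CPM and did not pass (-0.12 ± 0.15, SE). Whether any of these regulators bears on the cluster was not tested.

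**Figure D4:**
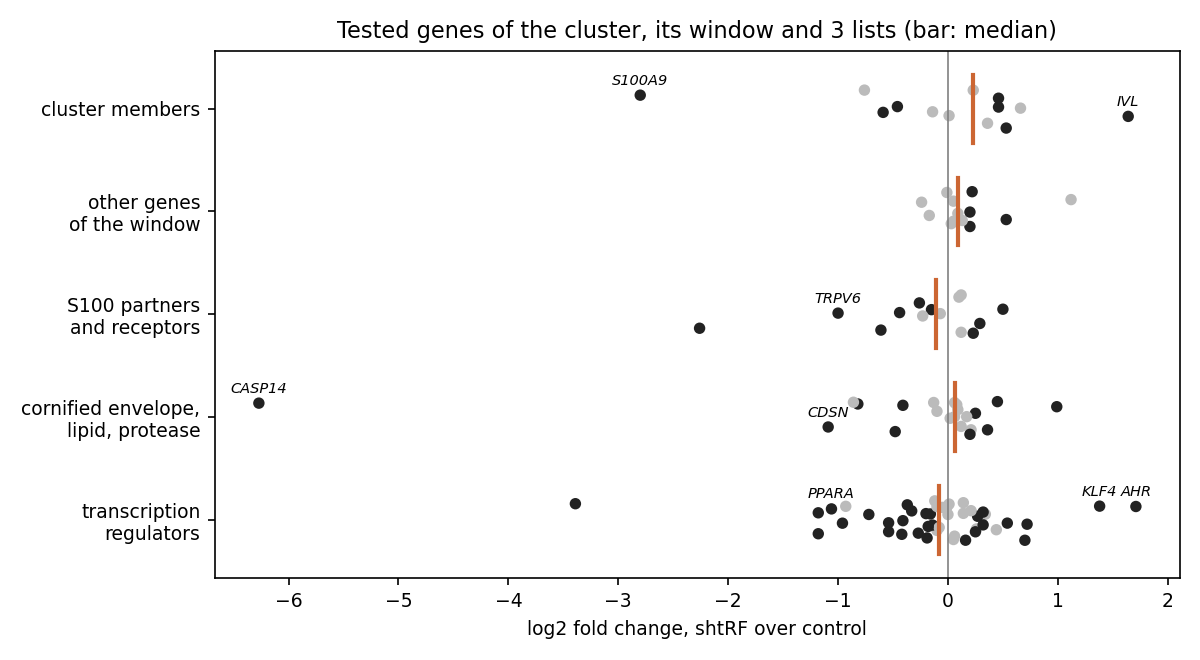
Log2 fold change of each tested gene (points; black, adjusted p under 0.05) for the cluster members, the other genes of the window and the 3 larger lists, with a bar at the median. The medians lie between -0.11 and 0.23, and S100A9, IVL and CASP14 lie far from those of their groups.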

How the data were processed

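Stranded mRNA libraries of MDA-MB-453 were sequenced as read pairs. Per the submitters' processing notes, reads were trimmed with Trimmomatic 0.36 and counted with featureCounts of Subread 1.5.1 on GRCh38; the aligner is not given in the sources used here. The authors deposited raw read counts per gene and RPKM values. All RPKM values of the 38 members in the part of that table used here equalled count over gene length and library total within 1e-05, so RPKM was recomputed in that way for every gene. Coordinates of all 39 members were those of GENCODE release 29.

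Counts were tested with edgeR 4.0.16 in R 4.3.3: filterByExpr with a minimum count of 10, TMM factors (0.961 to 1.03), glmQLFit and glmQLFTest on the 6 libraries with no covariate, and Benjamini-Hochberg adjustment over 19628 genes. DESeq2 1.42.0 and limma 3.58.1 on log2(RPKM + 1) were alternatives, beside other scalings and filters, halved counts, a replicate block and leaving out each library. The tests were checked on simulated data. Same-numbered libraries deviated together with correlations of 0.0592, 0.0178 and 0.0174. The exact binomial interval was computed with scipy 1.17.1. Promoter sequences were read from RefSeq (GRCh38.p14).

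Members, lists and motifs were chosen with earlier results of these data known. Every tested member is named. Genes of the lists are named if they had an adjusted p under 0.05, a change of over 2-fold and a mean of at least 2 CPM, at most 4 per list and direction, together with ANXA1, ANXA2, AHNAK, GRHL2, KLF4, TP63 and ZNF750. A gene that meets this rule is not reported here.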

Additional observations from a re-analysis of the deposited data

How the results depend on the processing

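The 4 higher and 3 lower members were found under RLE and upper quartile scaling, DESeq2, a filter of at least 10 counts in every library, limma-trend on log2(RPKM + 1), halved counts, and in each fit without 1 library. No filter beyond 1 count gave 4 lower members, S100A8 being the addition. With the replicate block the numbers were again 4 and 3, and no other count moved by over 1.5 times; the replicate numbers did not pair the libraries. Members with under 10% exonic overlap, an alternative chosen after seeing the data, gave 3 higher, since S100A13 was left out.

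Of 176 values for single members in other settings, 8 changed sign, all of genes not called in any setting, and the remaining 168 gave the same call and sign. For S100A14 the log2 fold change was -0.023 with upper quartile scaling, -0.041 under limma-trend and -0.00096 when every library had to hold at least 10 counts, and -0.013, -0.0071 and -0.0072 without control replicate 3, shtRF replicate 2 and shtRF replicate 3. TCHH was -0.011 without shtRF replicate 1 and S100A2 -0.026 without control replicate 2. Over the fits without 1 library these genes reached up to 0.05 (S100A14), 0.40 (TCHH) and 0.68 (S100A2).

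Among the other genes of the window, limma-trend called 1 higher and the limit on exonic overlap, which tests fewer genes, left 2. Limma-trend also called 3 cornification genes higher; the cause was not tested. Leaving out 1 library gave 2 to 4 higher window genes, 2 to 6 lower S100 partners and 3 to 5 lower cornification genes. FLG, S100A2 and S100A4 had too few counts for the stricter filter, and depth limits what can be said of them.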
